A study of Mus musculus with 4 samples.

Results

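Lipid droplet coat genes encode the proteins that sit on the surface of the droplets in which cells store neutral fat. The group here holds 9 of the 19087 mouse genes with a named probe, namely the perilipins Plin1, Plin2, Plin3, Plin4 and Plin5, the CIDE family genes Cidea, Cideb and Cidec, and the lipase inhibitor gene G0s2. The group was selected on the measured difference of Plin1, Plin4 and Cidec, which read higher with sunitinib in these same arrays, and the other 6 genes were taken in for their place in the same families. The treatment difference of these genes is therefore described below without a test. Each of the 9 genes had 1 probe with that symbol alone.

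The samples were tumours that MDA-MB-231 cells, an established human line of triple-negative breast cancer, had formed in immunodeficient mice. The strain, sex, age and number of mice per sample are not given in the labels. Sunitinib, which blocks the receptors of VEGF and PDGF and some other receptor kinases, was given at 40 mg/kg/day for 2 of the 4 samples, and the other 2 were vehicle controls. Each sample gave 0.5 µg of RNA with RIN 9. The series title speaks of withdrawal of the drug, and the labels do not give the time between last dose and sampling. The array carries mouse probes, so that it reads host cells (vessels, stroma, immune cells, fat) together with any human tumour transcript that binds the same probe, whose part was not tested. In RNA from whole tumours, fewer cells of a type and less RNA per cell cannot be told apart.

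Perilipins form a coat that controls the access of lipases to stored triglyceride. Plin1 is the main coat protein of fat cells, where it holds back the lipase activator Abhd5 until the cell is stimulated. Plin2 and Plin3 are found in many cell types, Plin4 is abundant in white fat, and Plin5 is known from muscle, heart and liver, where fat is burned. The CIDE proteins act at contacts between droplets, and Cidec drives the growth of the large single droplet of the white fat cell. Cidea is a marker of brown fat in mice and Cideb is known from liver. G0s2 binds and inhibits Pnpla2, the lipase that starts triglyceride breakdown.

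Values are log2 intensities. The 25th percentile of all 45220 features was 8.70 or 8.71 and the median 8.89 or 8.90 on each array, so that a value near 8.9 lies where most features lie and is called background here. No detection flags were used. Signal this close to background can compress differences, so that the folds given below may understate changes from or to a dim level. Whether they do so here was not tested. Across 217 probes printed in 8 or more copies, the median SD among spots of a probe was 0.17 to 0.20 log2 on the 4 arrays. Replicate 1 of both groups lay on 1 slide and replicate 2 of both on another, and on both slides vehicle took array 1 and sunitinib array 2, so that the place on the slide and the treatment cannot be told apart.

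The arrays also differed in Xist, an RNA made by the silenced X chromosome of females. It read 12.19 and 12.26 in vehicle replicates 1 and 2 and 8.97 and 8.96 in sunitinib replicates 1 and 2, and was the 1 probe of 43154 that passed in limma (0.00232% of probes, difference -3.26, SE 0.08, n = 2 per group, adjusted p = 0.00997). Eif2s3y, a Y-linked translation factor gene, read 8.46 and 8.58 with vehicle against 10.21 and 10.02 with sunitinib (adjusted p = 0.295). The presence of Xist and the treatment therefore part the arrays in the same way and cannot be told apart for any gene described below. The sex of the host mice is not given in the labels. A difference in host sex between the groups was not tested and likewise cannot be told apart from treatment. No probe passed with the slide as a block or without any 1 array.

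In Plin1, Plin4 and Cidec the vehicle arrays lay from 0.33 below to 0.58 above the median of all features, above that median in replicate 1 and, for all 3 genes, below it in replicate 2, and both sunitinib arrays were higher by about 1 log2 or more. Plin2 and Plin3 were bright in every array, G0s2 lay 0.37 and 0.63 above that median with vehicle and read a little higher with sunitinib, and Plin5, Cidea and Cideb were near background throughout. With both sunitinib arrays above both vehicle arrays as the criterion, 6 of the 9 were higher, 1 was lower and 2 overlapped. The 6 include Plin1, Plin4 and Cidec, which were chosen for reading higher, so the count is no support for the group as a whole. The others were G0s2, with 0.23 between the groups at their nearest, Plin3 with 0.04 and Cidea with 0.06. Over all 19087 genes, taken by their brightest probe, 25.9% were higher and 22.3% lower by the same criterion. The median difference over the 9 genes was 0.17 log2 (0.46 without sunitinib replicate 1), against 0.005 over all genes, and 0.09 over the 6 genes that were not the reason for the choice. Only Plin1, Plin4 and Cidec combined this separation with a difference of at least 1 log2, which 0.246% of all genes did.

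**Figure D1:**
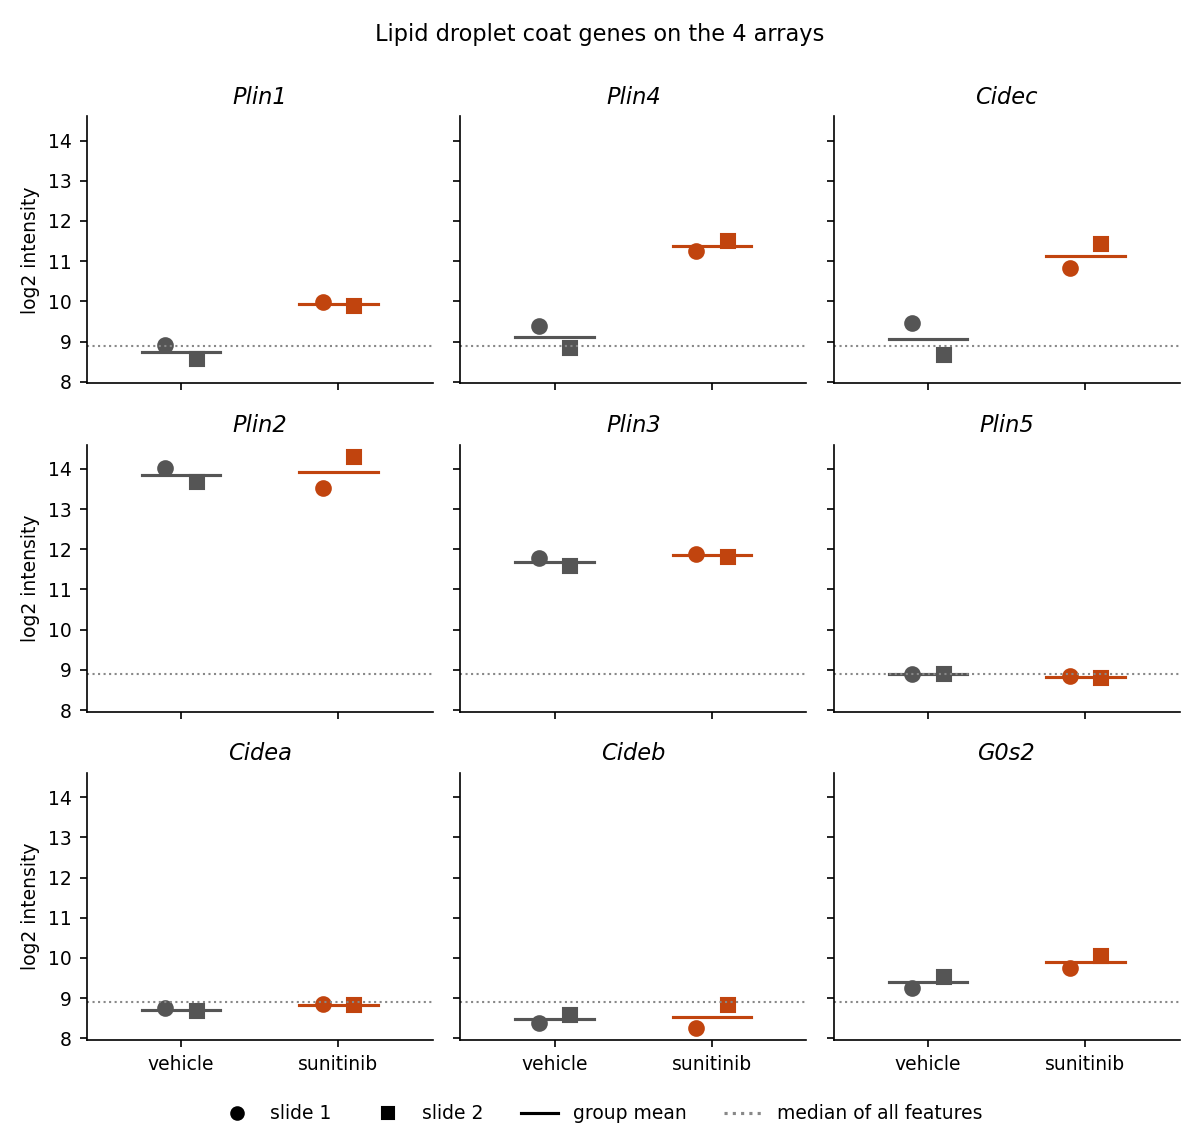
Log2 intensity (vertical axis) of the 9 coat genes on the 4 arrays, with vehicle in grey and sunitinib in orange, circles for slide 1, squares for slide 2, bars for group means and a dotted line for the median of all features. Plin1, Plin4 and Cidec lie from 8.57 to 9.47 with vehicle and from 9.89 to 11.49 with sunitinib, while Plin2 and Plin3 stay above 11.5 and Plin5, Cidea and Cideb below 9 on all 4 arrays.

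Plin4 had the largest difference of the 9. It read 9.38 and 8.83 in vehicle replicates 1 and 2 and 11.25 and 11.49 in sunitinib replicates 1 and 2. Both sunitinib arrays stood at least 1.87 above the higher vehicle array, and the lower vehicle array was at background. The difference of means was 2.27 log2 (SE 0.21, n = 2 per group), which is 4.81-fold. Within slides it was 1.87 on slide 1 and 2.66 on slide 2.

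Plin4 lies on mouse chromosome 17 next to Plin5, with no other gene listed between them in the RefSeq annotation. The neighbour was not read above background in any array. Its values were 8.90 and 8.89 with vehicle and 8.85 and 8.80 with sunitinib, a difference of -0.07 (SE 0.08). The groups did not overlap, but all 4 values lay within a span smaller than the SD among copies of a probe. Plin3, which lies on the same chromosome, was bright in all arrays.

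The promoters of these neighbours are shown because 1 gene of the pair had a large treatment difference and the other had none that could be read. The sequences come from RefSeq (GRCm38.p6), run from 250 bases before to 50 bases after an annotated start, are written 5′ to 3′ on the gene's strand (minus for both), and cover chr17:56109733-56110032 for Plin4 and chr17:56117499-56117798 for the upstream of 2 annotated Plin5 starts. Capitals mark matches on either strand to the TATA box (TATAA), to the CCAAT box, to AGGTCA, a hexamer bound by many nuclear receptors, or to the GC box (GGGCGG).
Plin4: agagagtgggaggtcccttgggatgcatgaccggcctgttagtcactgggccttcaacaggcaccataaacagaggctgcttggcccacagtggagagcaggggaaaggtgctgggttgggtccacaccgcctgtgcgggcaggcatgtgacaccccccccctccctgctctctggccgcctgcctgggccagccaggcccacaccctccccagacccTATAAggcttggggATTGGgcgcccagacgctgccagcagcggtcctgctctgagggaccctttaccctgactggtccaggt
Plin5: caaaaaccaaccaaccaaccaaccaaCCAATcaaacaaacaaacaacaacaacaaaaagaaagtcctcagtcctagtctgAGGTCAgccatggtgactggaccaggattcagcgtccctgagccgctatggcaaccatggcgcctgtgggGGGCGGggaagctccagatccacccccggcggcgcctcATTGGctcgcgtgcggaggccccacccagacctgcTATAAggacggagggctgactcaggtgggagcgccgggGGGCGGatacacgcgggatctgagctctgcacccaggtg
These 2 windows hold TATAA shortly before the start, with its first base at -32 in Plin4 and -27 in Plin5 (the start itself counted as 0), and CCAAT on the reverse strand, at -18 and -62. The window of the downstream Plin5 start (chr17:56117249-56117548, not shown) holds neither. TATAA is found in 24.9% and CCAAT in 37.4% of the 32851 promoters of this length. Both Plin5 windows also hold the nuclear receptor hexamer (in 16.3% of promoters) and the GC box, which the Plin4 window lacks (in 35.7% of promoters). These matches are a description of letters in the window.

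Cidec followed. It read 9.47 and 8.67 in vehicle replicates 1 and 2 and 10.83 and 11.43 in sunitinib replicates 1 and 2. The groups were 1.36 apart at their nearest, yet the replicates of Cidec were the farthest apart among the 3 genes, by 0.80 with vehicle and 0.60 with sunitinib. The difference was 2.06 log2 (SE 0.33, n = 2 per group), or 4.17-fold. Slide 1 gave 1.36 and slide 2 gave 2.76, that is 2.57-fold and 6.77-fold, since vehicle was higher and sunitinib lower on slide 1.

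Plin1 is the coat gene most closely tied to fat cells. It read 8.92 and 8.57 with vehicle, both at background, and 9.98 and 9.89 with sunitinib. The arrays of each group lay 0.35 and 0.09 apart and the groups 0.97 apart at their nearest. The difference was 1.19 log2 (SE 0.14, n = 2 per group), or 2.28-fold, with 1.06 on slide 1 and 1.32 on slide 2.

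The promoters of Plin1 and Cidec are shown as those of the other 2 genes that read higher together with Plin4, Cidec having 2 annotated starts. They cover chr7:79732727-79733026 for Plin1, chr6:113435711-113436010 for the upstream and chr6:113434715-113435014 for the downstream start of Cidec, all on the minus strand of GRCm38.p6 and written as above. Capitals mark TTGCNNAA, a core recognised by C/EBP factors of fat cell differentiation, the only one of the 7 motifs searched that these windows hold. Besides the motifs named above, the search covered the E-box CACGTG (in 7.15% of promoters) and the sterol element TCACNCCAC (in 1.24%).
Plin1: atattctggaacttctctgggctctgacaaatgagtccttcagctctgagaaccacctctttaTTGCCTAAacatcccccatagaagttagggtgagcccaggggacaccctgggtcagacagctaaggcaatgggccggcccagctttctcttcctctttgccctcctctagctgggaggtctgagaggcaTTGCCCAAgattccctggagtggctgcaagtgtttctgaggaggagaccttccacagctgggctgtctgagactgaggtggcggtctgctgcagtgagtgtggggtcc
Cidec, upstream start: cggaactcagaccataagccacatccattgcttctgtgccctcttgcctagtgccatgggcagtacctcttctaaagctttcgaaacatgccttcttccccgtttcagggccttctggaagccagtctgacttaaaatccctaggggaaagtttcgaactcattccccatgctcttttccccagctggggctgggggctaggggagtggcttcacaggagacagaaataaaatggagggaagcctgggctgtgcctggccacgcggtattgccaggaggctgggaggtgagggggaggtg
Cidec, downstream start: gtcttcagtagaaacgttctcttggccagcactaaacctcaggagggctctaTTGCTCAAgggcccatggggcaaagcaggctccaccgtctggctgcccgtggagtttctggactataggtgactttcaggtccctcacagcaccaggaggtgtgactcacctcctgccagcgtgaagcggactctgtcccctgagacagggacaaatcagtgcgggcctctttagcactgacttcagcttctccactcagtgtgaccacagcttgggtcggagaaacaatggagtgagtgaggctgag
TTGCNNAA was found at bases -187 and -58 of the Plin1 window and at base -198 of the downstream Cidec window, and not in the upstream Cidec window or that of Plin4. It occurs in 10.8% of the 32851 promoters. The repeat AGGTCANAGGTCA, the kind of element that PPARG binds with its RXR partner, was searched with up to 2 mismatches, which 3.86% of promoters hold. Of the 10 promoters of the 8 coat genes searched (Cidea was not included), the 1 of Plin2 held it. The windows of Plin1, Plin4 and Cidec had 3 or 4 mismatches at best, and 24.6% of promoters have 3 or fewer. Elements farther from the start are not covered by these windows.

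**Figure D2:**
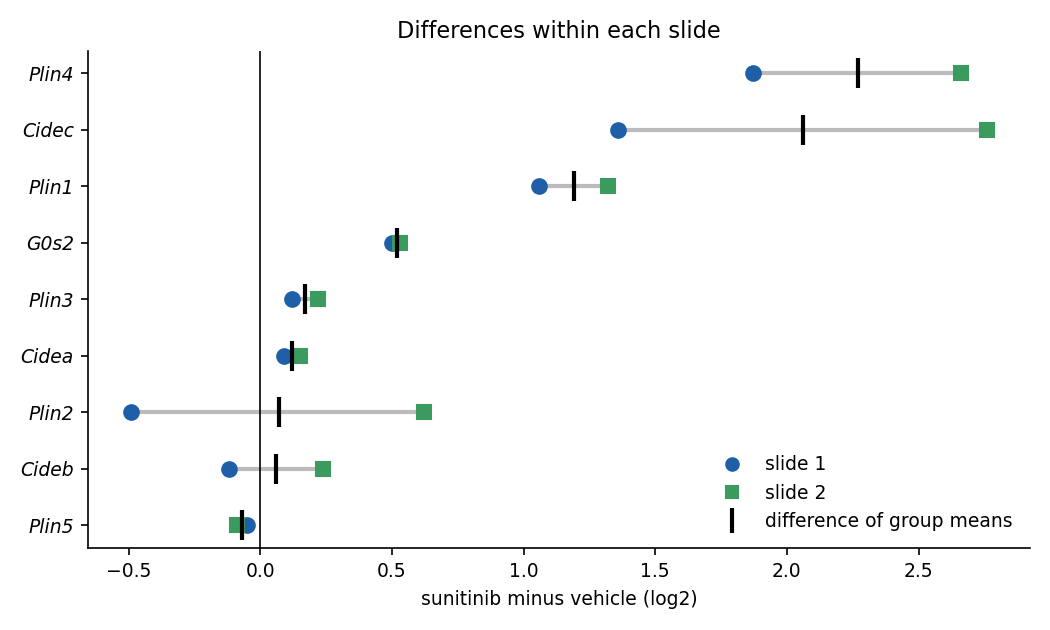
Sunitinib minus vehicle in log2 (horizontal axis) for each coat gene, as the difference of group means (black bar) and within slide 1 (blue circle) and slide 2 (green square). Plin4, Cidec and Plin1 are at 1.06 or more on both slides, whereas Plin2 runs from -0.49 on slide 1 to 0.62 on slide 2.

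The replicate spread can be set beside these differences. Over all genes, the 2 vehicle arrays differed by 0.32 or less for 90% and by 0.44 or less for 95% of genes, and the 2 sunitinib arrays by 0.38 and 0.52. The vehicle gap of Plin4 (0.55) and Cidec (0.80) was thus wider than for most genes, and that of Plin1 (0.35) lay between these limits. In all 3 the vehicle array of slide 1 was the higher of the pair. The sunitinib gaps were 0.24 for Plin4, 0.60 for Cidec and 0.09 for Plin1, with no common order.

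By size of difference, Plin4 ranked 12, Cidec 15 and Plin1 28 among 19087 genes. Of the 11 genes above Plin4, 8 had 1 sunitinib array more than 3 log2 above the other. When genes were ranked by the distance from the lower sunitinib to the higher vehicle array, which such single bright arrays do not raise, Plin4 was at rank 3, Cidec at rank 7 and Plin1 at rank 9. The genes among them in the first 9 were the desaturase Scd1, the fat cell hormone gene Adipoq, the carbonic anhydrase Car3, the fatty acid synthase Fasn, Eif2s3y and its X-linked relative Eif2s3x. These ranks describe the contrast that led to the choice of the genes. G0s2 ranked 350 by difference and 709 by distance.

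**Figure D3:**
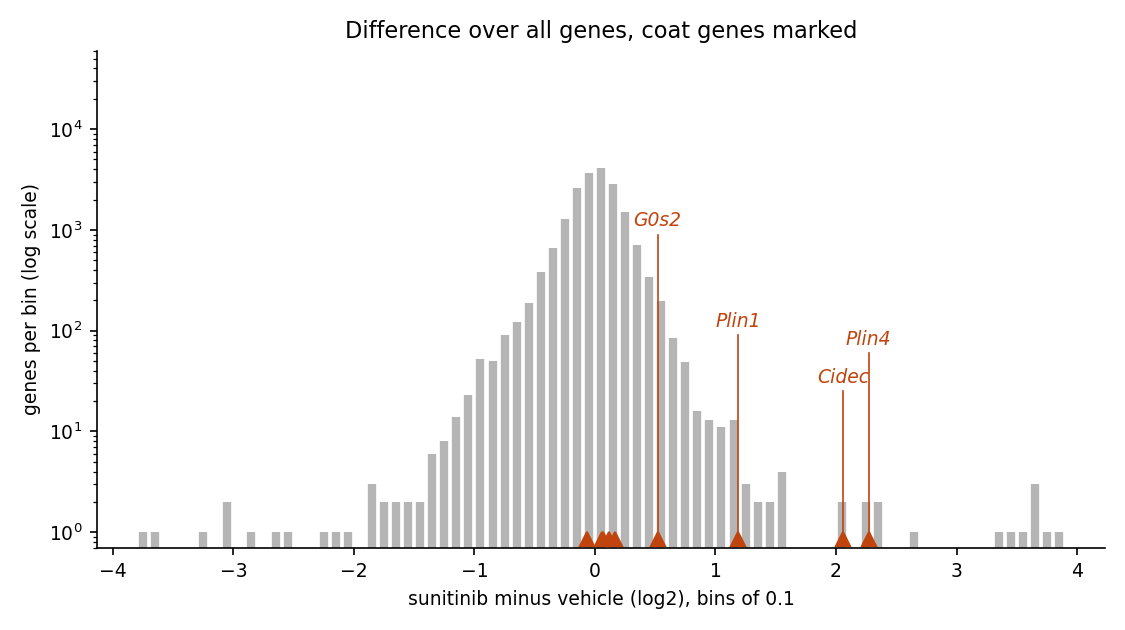
Number of genes per bin of 0.1 log2 (vertical axis, log scale) by sunitinib minus vehicle difference (horizontal axis) for the brightest probe of each of 19087 genes, with triangles for the 9 coat genes. Plin1 (1.19), Cidec (2.06) and Plin4 (2.27) lie in the sparse right tail, G0s2 (0.52) on its slope and the other 5 between -0.07 and 0.17.

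Plin2, the coat gene that most cell types use when they take up fat, was bright in all samples and overlapped between groups. It read 14.01 and 13.68 with vehicle and 13.52 and 14.30 with sunitinib. The highest and the lowest of the 4 values were both sunitinib arrays. The difference was 0.07 log2 (SE 0.28), made of -0.49 on slide 1 and 0.62 on slide 2, so that the slides pointed in opposite ways. The values lay well under the scanner limit near 16. Without sunitinib replicate 1 the difference was 0.46, and without sunitinib replicate 2 it was -0.32.

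Plin3, which loads early onto small new droplets, varied little. It read 11.77 and 11.59 with vehicle and 11.89 and 11.81 with sunitinib. The groups were separated by 0.04, less than the SD among copies of a probe. The difference was 0.17 log2 (SE 0.10), and 0.04 once a running median over an inferred layout of the array was subtracted.

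G0s2 read 9.26 and 9.53 with vehicle and 9.76 and 10.06 with sunitinib. Both sunitinib arrays were higher, with 0.23 between the groups at their nearest, which was less than the gap within each group (0.27 and 0.30). The difference was 0.52 log2 (SE 0.15), or 1.43-fold, and it was much the same on slide 1 (0.50) and slide 2 (0.53). In G0s2 the array of slide 2 was the higher in both groups, the reverse of the order that Plin1, Plin4 and Cidec had with vehicle.

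Cidea and Cideb gave no readable signal. Cidea read 8.76 and 8.67 with vehicle and 8.85 and 8.82 with sunitinib, a difference of 0.12 (SE 0.08) between values that were all below the median of all features. Cideb read 8.38 and 8.58 with vehicle and 8.26 and 8.82 with sunitinib, so that the lowest and the highest of the 4 values were both sunitinib arrays (difference 0.06, SE 0.21). For these genes and for Plin5 a level was not detectable by these probes, which does not show that the transcripts were absent. Within the CIDE family, then, Cidec alone was read above background.

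Genes that work with the coat were taken as a list of 34 droplet enzymes, regulators and partners, of which 33 had a probe. Of these, 14 were higher and 5 lower in both sunitinib arrays (25.9% and 22.3% of all genes were), with a median difference of 0.11 log2. None of the 33 passed in limma after adjustment over all 43154 probes (0.00524% of genes did). At an unadjusted p under 0.05, 7 were higher and 3 lower, against 8.44% and 6.32% of all genes. The triglyceride-making enzyme gene Dgat2 read 9.72 and 9.36 with vehicle and 10.62 and 10.74 with sunitinib, and its groups did not overlap. Its difference was 1.14 (SE 0.14, limma adjusted p = 0.352), with dimmer probes at 0.55 and 0.32.

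The lipolysis genes that the coat controls differed less. Pnpla2, the lipase that G0s2 inhibits, differed by 0.40 (SE 0.15), and by 0.32 on its other probe. Hormone-sensitive lipase, Lipe, differed by 0.18 (SE 0.08), but its dimmer probes gave 0.34 and -0.15. Abhd5, the activator that Plin1 holds back, differed by -0.22 (SE 0.09), with 0.05 on a dimmer probe. Bscl2, the gene of seipin, which shapes new droplets, differed by 0.28 (SE 0.11), while its other probe gave 0.38. Hilpda, a hypoxia-induced inhibitor of Pnpla2, read 9.91 and 10.08 with vehicle against 9.34 and 9.79 with sunitinib (difference -0.43, SE 0.17), and differed by -0.35 on its other probe. G0s2 and Hilpda, both inhibitors of the same lipase, thus lay on opposite sides, the former higher and the latter lower with sunitinib. On the brightest probe of neither gene did the groups overlap, but 25.9% of all genes were likewise higher and 22.3% lower. Hilpda did not pass in limma (adjusted p = 0.379).

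Among other partners, Hsd17b11, a droplet-bound dehydrogenase, differed by -0.59 (SE 0.12), with -0.28 and 0.33 on dimmer probes. The fatty acid transporter gene Cd36 differed by 0.53 (SE 0.26) and Faf2, which helps remove droplet proteins, by 0.49 (SE 0.15). The dimmer probe of Cd36 gave 0.38 with groups overlapping (9.77 and 9.09 with vehicle, 10.19 and 9.44 with sunitinib). The dimmer probes of Faf2 gave 0.09 and 0.03 and did not bear out the difference of its brightest one. Rab18, a droplet-associated GTPase, differed by 1.20 (SE 0.40) on its brightest probe and by -0.14 and -0.12 on the other 2, so that its probes disagreed. The probes of Fabp4, a fatty acid carrier of fat cells, also differed. The brightest read 13.91 and 13.79 with vehicle against 14.36 and 13.68 with sunitinib (difference 0.17, SE 0.23), the next read 13.35 and 12.84 against 13.89 and 14.29 (difference 1.00), and the dimmest differed by 0.48. The adjusted p of each of these brightest probes was 0.352 or more in limma.

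Transcription factors and cofactors known to act on coat genes were taken as a second list of 20 genes, all with a probe. Of these, 7 were higher and 1 lower in both sunitinib arrays, where 25.9% and 22.3% of all genes were. In limma 0 passed, and at an unadjusted p under 0.05 there were 4 higher and 0 lower, beside 8.44% and 6.32% of all genes. The median difference was 0.04 log2. Pparg, the master regulator of fat cell genes, read 9.60 and 9.62 with vehicle and 9.94 and 9.93 with sunitinib, so that the replicates nearly coincided. Its difference was 0.32 (SE 0.08, limma adjusted p = 0.352), with 0.34 on slide 1 and 0.30 on slide 2. Rxrb, a partner of PPAR factors, differed by 0.42 (SE 0.08) on its brightest probe and by -0.03 on another that was almost as bright. Esrra differed by 0.36 (SE 0.13), with -0.14 on a dim probe.

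Srebf1, which drives fatty acid synthesis genes, read 12.25 and 12.22 with vehicle and 12.42 and 12.40 with sunitinib (difference 0.18, SE 0.08). Cebpa, the C/EBP factor of mature fat cells, overlapped between groups at a difference of -0.09 (SE 0.12) on its brightest probe. A dimmer Cebpa probe had the other sign, with 9.07 and 8.94 against 9.20 and 9.26 (difference 0.23). Ppara, a regulator of fat burning, was near background (8.66 and 8.82 against 8.82 and 8.75). The differences of Pparg and Srebf1 were thus small in log2 beside those of Plin4 and Cidec.

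The genes whose 4-array pattern lay nearest to the mean centred profile of Plin1, Plin4 and Cidec were Scd1, Adipoq, Eif2s3y, Fasn, Dgat2 and Cyp2f2. The measure was the root mean square difference over the 4 arrays, which was 0.284 log2 for Scd1, 0.289 for Adipoq, 0.313 for Eif2s3y, 0.32 for Fasn, 0.36 for Dgat2 and 0.422 for Cyp2f2. The coat genes themselves were at 0.185 (Cidec), 0.213 (Plin4) and 0.354 (Plin1). Each of these is part of the mean profile, which lowers its distance, so these values are not comparable with those of the other genes. Scd1 read 9.38 and 9.20 with vehicle and 11.58 and 11.63 with sunitinib. Adipoq had the same order within vehicle as the coat genes, with 9.28 on slide 1 and 8.70 on slide 2, and read 11.41 and 11.23 with sunitinib. With 4 arrays, likeness of this kind says that genes part the groups by a like amount.

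Markers of cell types that could hold these transcripts were read beside the coat genes. For fat cells, with the coat genes left out, 16 of 18 markers had a probe. Their mean level was 9.22 and 9.00 in vehicle replicates 1 and 2 and 9.54 and 9.57 in sunitinib replicates 1 and 2, so that the groups did not overlap and vehicle replicate 2 was lowest, as for Plin1, Plin4 and Cidec. Of the 16, 7 were higher and 2 lower in both sunitinib arrays (25.9% and 22.3% of all genes), with a median difference of 0.17. At an unadjusted p under 0.05, 4 were higher (8.44% of all genes) and 0 lower (6.32%), while 0 passed in limma after adjustment. The shift in the mean was carried by few genes. Car3 differed by 2.62 (SE 0.47), with 0.12 on a dim probe, Adipoq by 2.33 (SE 0.21) and Thrsp, a lipogenic protein gene, by 0.74 (SE 0.20). The 2 lower markers were Aqp7 (-0.35, SE 0.17) and Adig (-0.20, SE 0.08). Lpl, which was bright, differed by -0.20 (SE 0.26) with groups overlapping. Lep, Lgals12, Nrg4, Acvr1c and Adig were under 9 on all 4 arrays. The part of fat cells in the coat gene values was not tested.

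Brown fat markers showed no such order. Ucp1, the thermogenic uncoupling protein, and Elovl3 were under 9 on all 4 arrays, like Cidea. The mean level of the 7 markers was 9.41 and 9.19 with vehicle and 9.20 and 9.10 with sunitinib, and the largest differences, of Zic1 (-0.91, SE 0.54) and Dio2 (-0.43, SE 0.39), came from overlapping groups on the brightest probes. On a dimmer Zic1 probe the groups did not overlap (9.58 and 9.10 with vehicle, 8.51 and 8.57 with sunitinib). Of the 7 markers, 2 were higher and 1 lower in both sunitinib arrays (25.9% and 22.3% of all genes).

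Of the other lists, that of liver cells was the 1 whose mean level parted the groups. The counts below stand beside 25.9% of all genes higher and 22.3% lower in both sunitinib arrays. The macrophage mean over 8 markers was 12.05 and 11.82 with vehicle and 11.72 and 11.97 with sunitinib, with Cd163 at -0.72 (SE 0.46) and 0 of the 8 parting the groups. The mean of 10 skeletal muscle markers was 9.64 and 8.60 against 9.68 and 9.18, lowest in vehicle replicate 2, where Myh4 read 7.25 and, on its other probe, 7.72. Of the 10, 1 was higher and 0 lower in both sunitinib arrays. Mammary epithelium was at 9.49 and 9.57 in both groups. Of its 9 markers 0 were higher and 4 lower in both sunitinib arrays, at a median difference of -0.02. But 5 of the 9, with all 4 of the lower ones among them, were under 9 on all 4 arrays. The largest difference, of Epcam, was 0.22 (SE 0.16) with groups overlapping. Skin and sebaceous gland markers were at 8.82 to 8.89 on all 4 arrays, 6 of 9 under 9 throughout, with 4 higher and 3 lower in both sunitinib arrays and Lor at 0.21 (SE 0.09). Liver markers were at 9.07 and 9.66 with vehicle and 8.78 and 8.95 with sunitinib, the reverse of Plin1, Plin4 and Cidec. Of the 5 measured, 0 were higher and 4 lower in both sunitinib arrays, and 2 were under 9 throughout. Alb read 9.67 and 10.80 with vehicle, highest in replicate 2, against 9.17 and 9.56. The part of these cells in the results was not tested.

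**Figure D4:**
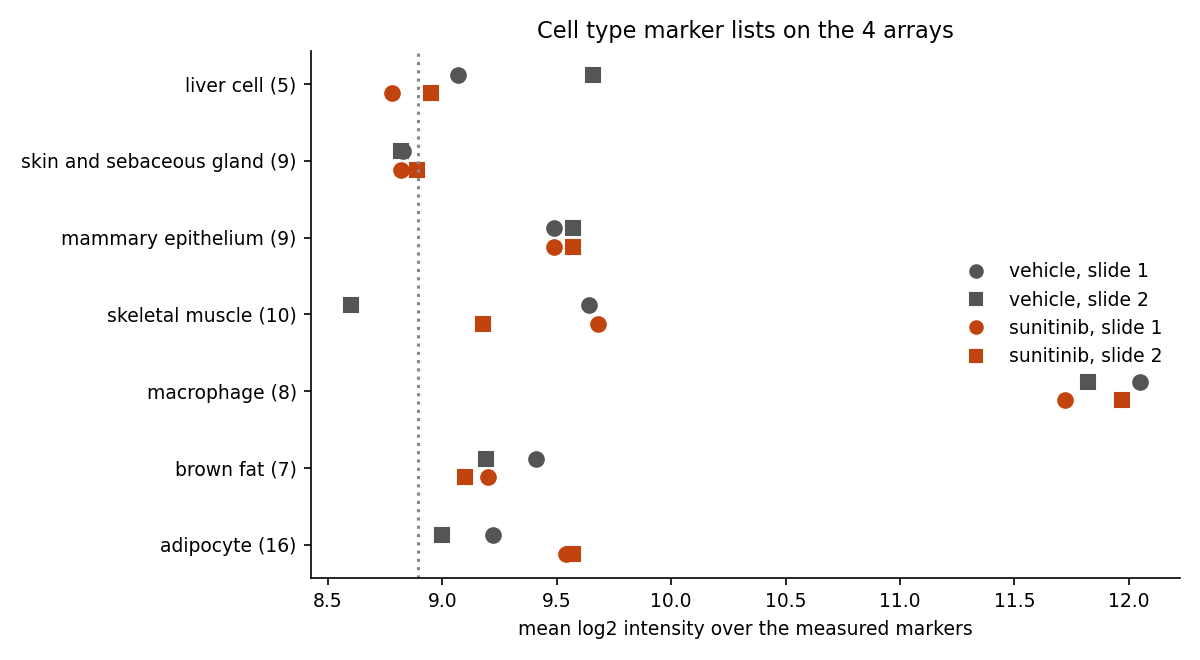
Mean log2 intensity (horizontal axis) over the measured markers of 7 cell types, with the number of markers in brackets, on each array (grey for vehicle, orange for sunitinib, circles for slide 1, squares for slide 2, dotted line for the median of all features). The fat cell markers are higher in both sunitinib arrays (9.54 and 9.57 against 9.22 and 9.00), the liver markers lower, and the other 5 lists overlap or touch between groups.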

How the data were processed

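RNA from 4 xenografts was hybridised to 1-colour (Cy3) Agilent arrays with mouse probes, per the labels. The values that the authors deposited are log2 intensities, a scale taken from their range (6.75 to 16.34, brightest features at 16). The submitters' processing notes name limma without a version. How background was corrected and how arrays were normalized was not given in the sources used here. Quartiles agreed between arrays within 0.02, and no further scaling was applied. Precision is limited by the number of arrays.

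The platform annotation gave 1 gene for 33653 features, several for 56 and none for 11511. Symbols were updated through RefSeq (GRCm38.p6), which held the gene number of 99.6% of the single-gene features. The 217 probes with at least 8 copies were combined by their median, which left 43154 probes. Where a gene had several probes, the brightest one stood for it. Sunitinib was compared with vehicle in limma 3.58.1 (R 4.3.3, lmFit and eBayes, treatment alone), with Benjamini-Hochberg adjustment over all probes and a threshold of 0.05, and the fit was tested on simulated data. Nothing in the labels says that replicates were separate animals. The p-values therefore measure only how far these samples spread, and that spread may be technical.

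The replicate number marks a shared slide in the array titles and so pairs the samples, although the 2 arrays of a slide, each taken as its deviation from its group mean, correlated at -0.225 over probes. The slide as a block was an alternative, and within-slide differences are given.

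The 9 genes and the lists were chosen with earlier results of these data known, and the promoter motifs after the sequences were seen. Named beside the 9 genes were 7 fixed droplet partners and 4 fixed regulators, the others of largest difference in each list (4 partners, 2 regulators, 3 fat cell, 2 brown fat and 1 for each other cell type), Xist, Eif2s3y, and the 6 genes nearest in pattern. Eif2s3x, named by its rank, and Aqp7, Adig and Lpl, named for their direction, were added after their values were seen. So were Lyz2, named for its level at the scanner limit, and the dimmer probes given for named genes. Genes of the lists without a named probe (Acsl1, Cfd, Adrb3, Cd68, Csf1r, Prlr, Awat1 and Serpina1a) are not analysed here. Alternatives are listed in the closing section.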

Additional observations from a re-analysis of the deposited data

How the results depend on the processing

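The alternatives were the slide as a block, each array left out in turn, quantile normalization, removal of probes below the 30th percentile, median-centred arrays, removal of a positional trend (running median over 21 by 21 features on an inferred layout of 85 columns), a floor set at the 5th percentile, all probes of a gene averaged, spots kept separate, 1 value per gene and a trended, robust prior. The inferred layout is uncertain, since array deviations along the feature order correlated most at a lag of 86 features and not 85. Limma called 1 probe. It called 2 with centring on the median, 4 with the position trend removed, 6 with the trended, robust prior, and 0 with the slide (replicate) block or without any 1 array. With crossed replicate numbers as the block, chosen after seeing the data, it also called 0. The count at an unadjusted p under 0.05 was 5792, and 3667 with the slide block, 5968 with the crossed block and 2849 to 5110 without 1 array. The block and the fits without 1 array have 1 residual degree of freedom fewer. The cause of the other shifts was not tested.

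The 9 coat genes had 6 higher in both sunitinib arrays, 5 with the position trend removed and 6 to 8 without 1 array. Without 1 array the criterion sets 2 arrays against 1 and is easier to meet, so these counts are not comparable with the main one. The share over all genes was not taken for the alternatives. Their median difference of 0.17 was 0.16 to 0.46 without 1 array, highest without sunitinib replicate 1, and 0.34 with dim probes left out, which removes Cideb. That of the regulators (0.04) was 0.04 to 0.08 without 1 array, and that of the droplet partners (0.11) 0.09 to 0.13, and 0.17 with dim probes left out. Over the alternatives, differences ran from 1.99 to 2.54 for Plin4, 1.66 to 2.46 for Cidec, 1.02 to 1.37 for Plin1, 0.37 to 0.67 for G0s2, 0.04 to 0.26 for Plin3, 0.08 to 0.17 for Cidea, -0.09 to -0.04 for Plin5, -0.32 to 0.46 for Plin2 and -0.22 to 0.34 for Cideb, so that Plin2 and Cideb had no settled direction. Levels near background limit Plin5, Cidea and Cideb in all groups, Plin1 in both vehicle arrays, and Plin4 and Cidec in vehicle replicate 2.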
